A study of Mus musculus with 6 samples.

Results

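Carbonic anhydrases were examined in RNA-Seq of whole mouse lung. The family has 16 genes in the deposited table of 54532 genes, and 8 of them are described here, namely *Car2*, *Car3*, *Car4*, *Car5b*, *Car8*, *Car12*, *Car13* and *Car14*. They were picked by gene symbol with the counts of both genotypes in view, so the differences between genotypes in these 8 genes are given as a description and carry no test of their own. The WT group was 3 untreated C57BL/6J mice at 2 months of age, which had been purchased. The ISM1-/- group was 3 untreated mice of the same age, generated in-house on the C57BL/6J background to lack ISM1, a secreted protein, and what the source of the mice adds to a difference cannot be told apart from genotype. Lungs were perfused to remove blood, and each of the 6 libraries was made from poly-A RNA of a whole lung and sequenced in read pairs.

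Carbonic anhydrases interconvert carbon dioxide and bicarbonate, which links gas exchange, acid-base balance and the supply of bicarbonate to ion transporters and to carboxylating enzymes. The isozymes differ mainly in where they act. *Car2*, *Car3* and *Car13* encode cytosolic proteins, *Car4* an enzyme anchored to the outer face of the cell membrane, *Car12* and *Car14* transmembrane enzymes with an extracellular catalytic domain, and *Car5b* a mitochondrial enzyme. *Car8* encodes a related cytoplasmic protein that has lost catalytic activity. In the lung *Car4* is known as a gene of the alveolar capillary, where the enzyme faces the blood, while *Car3* is best known from adipocytes and slow skeletal muscle.

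*Car3* is the family member that the study also measured by RT-PCR, and its primer pair shows which stretch of the transcript that assay read. Both primers lie in coding exons of transcript Car3-201 on chromosome 3 of GRCm38, in GENCODE M21. The forward primer lies in exon 3 (chr3:14866820-14866839) and the reverse primer in exon 4 (chr3:14868380-14868399), and the product spans 153 bases of the transcript. Both are written 5′ to 3′ as ordered, in lower case.
Car3 forward: ctctctggaccctaccgact
Car3 reverse: cagagcctctccaaaggtgt
Against the transcripts of the 15 other carbonic anhydrase genes, the forward primer had at least 6 mismatches and the reverse primer at least 7. The RNA-Seq counts are for the whole gene and were not limited to this product.

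The deposited counts do not say how a read that matches several genes was treated, so exact sequence shared between family members was measured. Over the 28 pairs of the 8 genes the longest identical run was 30 bases, shared by *Car2* and *Car13* in the coding part of exon 6 of each gene (chr3:14897970-14897999 and chr3:14656965-14656994). It is shown as the longest exact match among the 8 genes.
Car2 and Car13: ggactactggacataccctggctctctgac
The longest run that *Car3* shared with any other gene of the family was 28 bases, with *Car12*. Each of these runs is shorter than a single read of the pairs that were sequenced.

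Total counts were between 37606133 and 42345042 per library, with a median of 39101437, and 18689 genes passed a filter of 0.5 CPM (counts scaled to library size) in at least 1 library. *Ism1* itself had 3098, 3215 and 2975 counts in the WT libraries against 2784, 2508 and 2953 in the others, a mean of 87.6% of WT, so the second group is named below as the libraries labelled ISM1-/-. A count over the whole gene cannot show whether a part of it was deleted. Of the libraries, WT 1 stood apart in heart muscle genes, whose summed level was 1717 CPM against 306.7 to 673.7 CPM in the other 5, and in genes of alveolar type 1 cells, at 4467 CPM against 5958 to 6429 CPM. By the quasi-likelihood test of edgeR, adjusted by the method of Benjamini and Hochberg, 106 genes (0.567%) changed at least 2-fold at an adjusted p under 0.1, and 882 (4.72%) passed that p at any fold. Those lower in the libraries labelled ISM1-/- made up 0.284% and 3.34% of the genes tested.

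All 8 carbonic anhydrases passed the filter on low counts. *Car3* passed both thresholds and was the 1 member among the 106 genes, while 5 of the 8 had a negative and 3 a positive log2 fold change (libraries labelled ISM1-/- over WT). The median log2 fold change of the 8 was -0.04, beside 0.0043 over all genes tested. The libraries of the 2 groups did not overlap for *Car3* and *Car5b*, both lower in the libraries labelled ISM1-/-, where 12.3% of all genes tested showed that pattern and 21.6% had no overlap in either direction. Since this contrast was in view when the genes were picked, nothing is read from these counts.

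**Figure D1:**
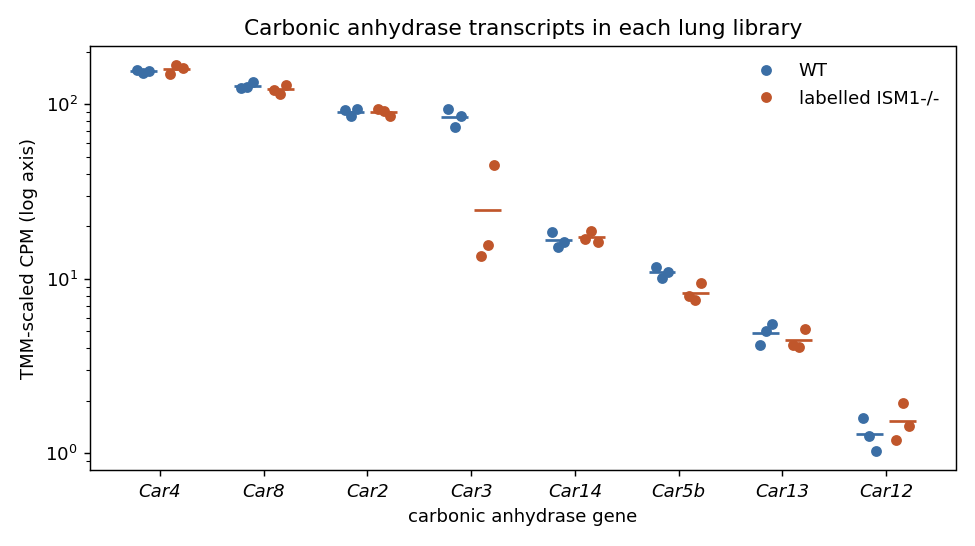
Level of each of the 8 carbonic anhydrase genes in each library, as TMM-scaled CPM on a log axis, with WT libraries in blue, libraries labelled ISM1-/- in orange and a bar at each group mean. *Car3* runs from 74.5 to 94.3 CPM in WT and only from 13.5 to 45.0 CPM in the other group, while the points of *Car4*, *Car8*, *Car2*, *Car14*, *Car13* and *Car12* overlap between groups.

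*Car3* (ENSMUSG00000027559, chromosome 3, 14863512 to 14872523, plus strand) encodes the cytosolic isozyme with the low catalytic rate that is abundant in adipocytes. Its counts were 3558, 3094 and 3315 in the WT libraries against 576, 592 and 1757 in the libraries labelled ISM1-/-. All 3 WT libraries lay above all 3 others, and replicate 3 of the libraries labelled ISM1-/- lay between the WT libraries and the remaining pair. The mean was 84.8 ± 9.92 CPM in WT against 24.7 ± 17.6 CPM in the libraries labelled ISM1-/- (SD, n = 3 each), which is 29.1% of WT. The log2 fold change was -1.78 (SE 0.37, 95% interval -2.61 to -0.95). It ranged from -2.54 without replicate 3 labelled ISM1-/- to -1.48 without replicate 1 of that group, and *Car3* no longer passed both thresholds without WT replicate 2 or without replicate 1 or 2 labelled ISM1-/-. Without WT replicate 1, the library that stood apart, it was -1.70. *Car3* was also the 1 member whose highest and lowest library differed by more than 2-fold, at 6.97-fold against 1.10-fold to 1.89-fold for the other 7.

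**Figure D2:**
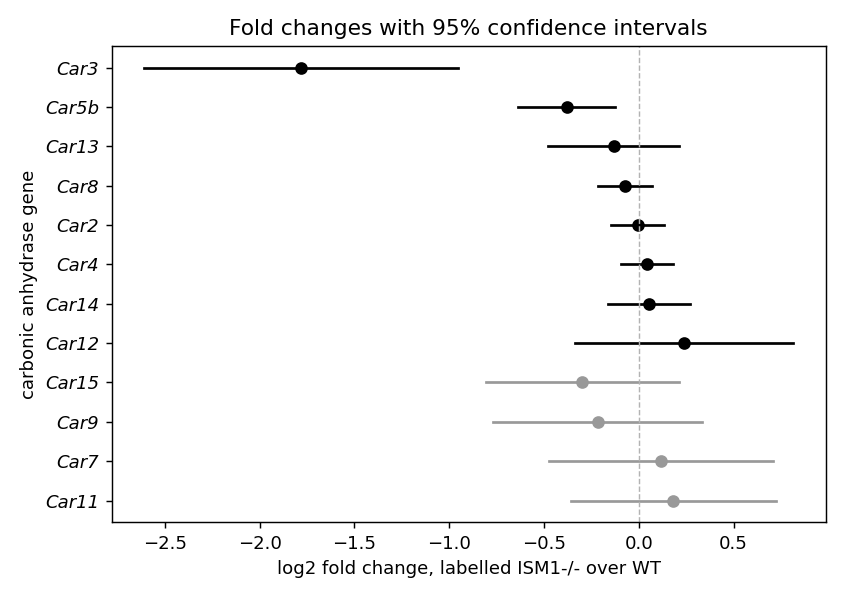
Log2 fold change of each tested carbonic anhydrase gene, libraries labelled ISM1-/- over WT, with its 95% confidence interval from the edgeR fit. The 8 genes described here are in black and 4 other family members in grey. The interval of *Car3* runs from -2.61 to -0.95 and that of *Car5b* from -0.63 to -0.13, and those of the other 10 genes span 0.

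The genes whose profile over the 6 libraries was most like that of *Car3* were found by the root mean square difference of log2 CPM, each gene centred on its own mean, among the 15875 other genes that averaged 1 CPM or more. The nearest were *Adipoq*, which encodes the adipocyte hormone adiponectin (0.17 on the log2 scale), *Tmem45b* (0.19), *Plin1*, a coat protein of the adipocyte lipid droplet (0.20), *Cfd*, which encodes adipsin (0.20), and *Fabp4*, a fatty acid binding protein of adipocytes and capillary endothelium (0.28). These differences stand against a root mean square of 1.14 for *Car3* about its own mean. The next adipocyte genes by this measure were *Retn* at rank 10 and *Thrsp* at rank 11, the first heart muscle gene was *Pln* at rank 45, and the first skeletal muscle genes were *Tnnt3* at rank 174 and *Ckm* at rank 176. *Car5b* was at rank 626.

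The nearest genes were picked for their likeness over these libraries, so a flat ratio to them follows from the choice and is given as a description. The number of *Car3* counts per *Adipoq* count was 6.36, 7.15 and 7.18 in WT against 5.19, 7.22 and 6.92 in the libraries labelled ISM1-/-. Per *Plin1* count it was 5.14, 5.96 and 6.56 in WT against 4.84, 5.48 and 7.17 in the others, and both ratios overlapped between groups. Per *Fabp4* count it was 1.92 to 2.35 in WT against 1.33 to 1.90 in the others, with no overlap, and per *Cidec* count 3.75 to 4.57 against 1.44 to 3.21, also with none. Over the 12 adipocyte genes listed below, the ratio overlapped for 8 and was lower without overlap for 4, *Cidec*, *Fabp4*, *Lipe* and *Pparg*. *Car3* itself was lower without overlap, so a lower ratio to genes that changed little, such as *Lipe*, *Pparg* and *Car2*, follows from that. Overlap can also come from spread in the other gene, as for *Ucp1*, where the ratio ran from 15.3 to 1550 within WT. Against *Car2*, the neighbouring isozyme gene, there were 102, 87.1 and 91.7 *Car3* counts per 100 *Car2* counts in WT against 14.4, 17.1 and 52.8 in the libraries labelled ISM1-/-, with no overlap.

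**Figure D3:**
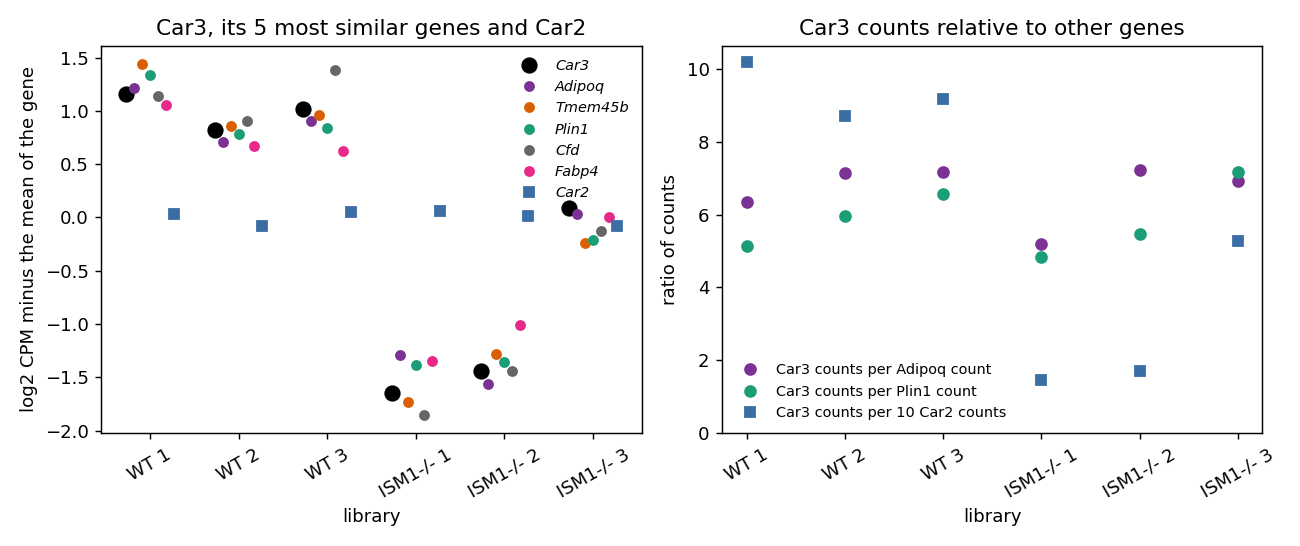
Left, log2 CPM of *Car3*, of the 5 genes most like it and of *Car2* in each library, each minus the mean of its own gene; right, counts of *Car3* per *Adipoq* count, per *Plin1* count and per 10 *Car2* counts. The 5 genes, picked for likeness, stay close to *Car3* in every library, *Car2* stays near 0 in all 6, and the ratios to *Adipoq* (5.19 to 7.22) and *Plin1* (4.84 to 7.17) overlap between groups.

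Marker genes of cell types that carry *Car3* were listed beside it. The lists were chosen with earlier results of these data known, and the paper itself reports *Adipoq*, *Plin1*, *Fabp4* and *Ucp1* as lower. The counts of list genes that passed are therefore given as a description and are no separate support. Of 12 adipocyte genes, all had a negative log2 fold change, with a median of -1.64, and 10 had no overlap between groups, beside the 12.3% of all genes tested. By edgeR's quasi-likelihood test over all genes, 7 of the 12 passed the adjusted p of 0.1 and the 2-fold change, namely *Adipoq*, *Plin1*, *Lep*, *Retn*, *Cfd*, *Fabp4* and *Thrsp*. Of all genes tested, 0.284% passed both as lower in the libraries labelled ISM1-/-. *Plin1* fell by 1.88 on the log2 scale (SE 0.29, adjusted p = 0.0163) and *Adipoq* by 1.72 (SE 0.34, adjusted p = 0.0343). *Lipe*, a lipase that other cells also express, was at 70.6 CPM in WT against 67.1 CPM in the libraries labelled ISM1-/-, and *Pparg* at 10.5 and 9.18 CPM, and neither passed. WT replicate 1 stood apart in 2 further genes that did not pass. *Ucp1* had 232, 2 and 24 counts in WT against 5, 4 and 3 in the libraries labelled ISM1-/-, and its groups overlapped. *Cidea* had 230, 51 and 51 counts in WT against 35, 31 and 22. The summed level of the 12 genes was 263.9 to 330.6 CPM in WT against 108.9 to 186.9 CPM in the libraries labelled ISM1-/-, highest there in replicate 3 as for *Car3*. The count of 7 became 2 to 8 when single libraries were left out, lowest without replicate 2 labelled ISM1-/-, and without WT replicate 1 it was 5 with a median of -1.21.

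The skeletal muscle list held mainly genes of fast fibres, so it does not speak to the slow fibres in which *Car3* is known. Of 13 genes, 7 passed the filter, 0 passed both thresholds, and *Tnnt3*, troponin T of fast muscle, passed the adjusted p alone (log2 fold change -0.81, adjusted p = 0.071 in edgeR). The median of the 7 was -0.20, with 4 negative and 3 positive, among them *Mylpf* at 0.41, higher without overlap but not past the test. The 1 that passed became 0 in 5 of the 6 fits that left out a single library, all but the one without replicate 3 labelled ISM1-/-. *Myh4* had no count in any library, *Acta1* had between 0 and 7 counts, and the summed level was 19.6 to 29.5 CPM in WT against 14.0 to 19.7 CPM in the libraries labelled ISM1-/-. Of all genes tested, 3.34% passed the adjusted p as lower and 0.284% passed both thresholds as lower. Heart muscle genes were lower in all 13 cases, with a median log2 fold change of -1.11, but only *Myl7* passed the thresholds (-1.11, adjusted p = 0.097 in edgeR). Without WT replicate 1, 12 of them were tested, their median was -0.50 and 0 passed in edgeR, and 0 passed in 5 of the 6 fits that left out a single library, against 5 without replicate 3 labelled ISM1-/-. In RNA of a whole lung, fewer cells of a type and less RNA per cell cannot be told apart, and the part of these cell types in the difference of *Car3* was not tested.

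*Car2* (ENSMUSG00000027562, chromosome 3, 14886273 to 14900770, plus strand) begins 13750 bases after the end of *Car3* and encodes the fast cytosolic isozyme known from erythrocytes and many epithelia. Its counts were 3489, 3552 and 3614 in WT against 3996, 3458 and 3330 in the libraries labelled ISM1-/-. The 6 libraries lay within 1.10-fold of each other once scaled, and the groups overlapped. The means were 90.4 ± 4.30 CPM and 90.1 ± 4.39 CPM, and the 95% interval of the log2 fold change ran from -0.15 to 0.14. Residual blood varied more than *Car2*: the summed level of erythroid genes ran from 135.9 to 446.4 CPM in WT and was between 148.8 and 624.5 CPM in the libraries labelled ISM1-/-. Over the WT libraries the order by erythroid genes was that of *Car2*. Their erythroid sums were 259.8, 135.9 and 446.4 CPM, and *Car2* was at 92.5, 85.5 and 93.4 CPM. Over the libraries labelled ISM1-/- the orders differed, since *Car2* was highest at 93.9 CPM in replicate 1, where the erythroid sum was lowest at 148.8 CPM. The part of residual blood in the level of *Car2* was not tested.

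*Car13* (ENSMUSG00000027555, chromosome 3, 14641727 to 14663002, plus strand), the third cytosolic isozyme, opens the same cluster of genes, in which *Car13*, *Car1*, *Car3* and *Car2* follow each other. It was low, with 157, 210 and 212 counts in WT against 178, 154 and 202 counts in the libraries labelled ISM1-/-. The groups overlapped, at 4.90 ± 0.67 CPM and 4.47 ± 0.61 CPM, and the interval of the log2 fold change ran from -0.48 to 0.21. *Car1*, which lies between *Car13* and *Car3* and encodes an erythrocyte isozyme, had 1 count in each of 2 libraries and none in the other 4. Of the 4 genes of the cluster, *Car3* was thus the 1 whose groups did not overlap, beside 12.3% of all genes tested that were lower without overlap. The counts of *Car1* were too few to show a difference.

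*Car4* (ENSMUSG00000000805, chromosome 11, 84957786 to 84966044, plus strand), the membrane-anchored isozyme of the alveolar capillary, was the most abundant of the family per transcript length. Its counts were 5944, 6246 and 6013 in WT against 6318, 6358 and 6304 in the libraries labelled ISM1-/-. The groups overlapped and the 6 libraries lay within 1.13-fold of each other. The means were 154.4 ± 3.66 CPM and 159.1 ± 9.69 CPM, and the interval of the log2 fold change ran from -0.09 to 0.18. Among 8 genes of the aerocyte, the capillary cell type of which *Car4* is a known marker, the median log2 fold change was 0.12 and 7 of 8 were positive. Of these, *Prx* alone passed the adjusted p (0.34, SE 0.06, adjusted p = 0.0232 in edgeR), and the summed level was 2954 to 3020 CPM in WT against 3168 to 3303 CPM in the libraries labelled ISM1-/-. The largest part of that sum was *Emp2*, whose own groups overlapped. *Emp2* was at 1278, 1471 and 1503 CPM in WT against 1476, 1549 and 1623 CPM in the libraries labelled ISM1-/-, lowest in WT replicate 1. Among 7 general capillary genes the median was 0.09 and *Sema3c* alone passed (0.50, adjusted p = 0.0706 in edgeR). The median was 0.13 for 8 genes of alveolar type 1 cells, -0.05 for 8 of type 2 cells, -0.32 for 7 of smooth muscle and -0.42 for 7 of airway epithelium, and 1, 0, 1 and 4 of them passed the adjusted p. The type 1 gene was higher, and those of smooth muscle and airway were lower. Of all genes tested, 4.72% passed the adjusted p in either direction and 3.34% as lower. With single libraries left out, 0 aerocyte genes passed without WT replicate 2, 0 general capillary genes without any 1 of the WT libraries or without replicate 2 labelled ISM1-/-, and 0 type 1 or smooth muscle genes in 4 of the 6 fits each. The 4 airway genes became 1 to 4, fewest without WT replicate 2. Without WT replicate 1 the median of the type 1 genes was -0.0086.

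The transmembrane isozyme genes overlapped between groups as well. *Car14* (ENSMUSG00000038526, chromosome 3, 95897768 to 95904691, minus strand) had 704, 631 and 631 counts in WT against 719, 716 and 638 in the libraries labelled ISM1-/-. These are 16.7 ± 1.77 CPM and 17.4 ± 1.32 CPM, with an interval of the log2 fold change from -0.16 to 0.27. Its end overlaps that of *Aph1a*, a gene on the opposite strand with a mean of 3172 counts. The paper describes the libraries as strand-specific. The sources used here do not say whether strand was used in counting, so the count of *Car14* is uncertain. *Car12* (ENSMUSG00000032373, chromosome 9, 66713686 to 66766845, plus strand) was the lowest of the 8, since it was counted 60, 52 and 40 times in WT against 51, 74 and 56 times in the libraries labelled ISM1-/-. At 1.29 ± 0.28 CPM and 1.53 ± 0.38 CPM its groups overlapped, and its interval from -0.34 to 0.81 was the widest of the 8 but for that of *Car3*.

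*Car5b* (ENSMUSG00000031373, chromosome X, 163976822 to 164027997, minus strand) encodes the mitochondrial isozyme, which supplies bicarbonate inside the organelle. Its counts were 439, 419 and 422 in WT against 338, 289 and 371 in the libraries labelled ISM1-/-. All 3 WT libraries were above all 3 others, at 10.1 to 11.6 CPM against 7.61 to 9.50 CPM. The means were 10.9 ± 0.77 CPM and 8.35 ± 1.01 CPM, or 76.8% of WT, and the log2 fold change was -0.38 (SE 0.11, interval -0.63 to -0.13). *Car5b* did not pass the adjusted p of 0.1, and its change was smaller than 2-fold at both ends of the interval. The adipocyte sums given above were lower in the same libraries, and their part in the difference of *Car5b* was not tested. *Car5a*, the other mitochondrial isozyme gene, had 0 to 2 counts per library.

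Genes of proteins that use or sense bicarbonate, the mitochondrial carboxylases among them, were listed beside *Car5b*. Of 9 such genes, 7, all of carboxylases or their subunits, passed the filter. All 7 had a negative log2 fold change with a median of -0.29, and 5 were lower with no overlap between groups, beside 12.3% of all genes tested. By edgeR's quasi-likelihood test 3 passed the adjusted p of 0.1, while 3.34% of all genes tested passed it as lower. *Pcx*, the pyruvate carboxylase of mitochondria, had 3511, 3769 and 3117 counts in WT against 2542, 2453 and 2379 in the libraries labelled ISM1-/-. Every WT library was above every other library, and *Pcx* fell by 0.51 on the log2 scale (SE 0.07, adjusted p = 0.0116). *Acaca*, the cytosolic acetyl-CoA carboxylase of fatty acid synthesis, fell by 0.39 (SE 0.08, adjusted p = 0.0488) and *Mccc2*, a subunit of the mitochondrial enzyme of leucine breakdown, by 0.29 (SE 0.07, adjusted p = 0.0826). None of the 3 reached a 2-fold change, and between 1 and 3 of the 7 passed when single libraries were left out, the count being 2 without WT replicate 1 and 1 without WT replicate 2 or without replicate 1 or 2 labelled ISM1-/-. *Pcx* and *Acaca* are also high in adipocytes, whose marker sums were lower in the same libraries, and the part of those cells was not tested.

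*Car8* (ENSMUSG00000041261, chromosome 4, 8143362 to 8239041, minus strand) encodes the acatalytic protein, which binds the inositol trisphosphate receptor. It had the second highest counts of the 8, with 4672, 5238 and 5167 in WT against 5166, 4330 and 5048 in the libraries labelled ISM1-/-. The groups overlapped, at 127.8 ± 5.06 CPM and 121.6 ± 7.63 CPM, and the interval of the log2 fold change ran from -0.21 to 0.07. A processed pseudogene, *Gm11799*, lies within *Car8* on the same strand and had 20 to 36 counts, far fewer than *Car8*.

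Of the 8 other genes of the family, 4 passed the filter on low counts, *Car7*, *Car9*, *Car11* and *Car15*, with 40 to 81 counts per library. Their groups overlapped, their log2 fold changes lay between -0.30 and 0.18, and 0 passed the adjusted p in edgeR. *Car9* is induced by low oxygen in many cells, and it had 71, 74 and 51 counts in WT against 79, 45 and 48 in the libraries labelled ISM1-/-. Of 10 other genes induced by hypoxia *Slc2a1* alone passed the adjusted p in edgeR (-0.25, adjusted p = 0.0873), and the median log2 fold change of the 10 was -0.02. Of all genes tested, 4.72% passed the adjusted p in either direction and 3.34% as lower. None of the 10 passed in 5 of the 6 fits that left out a single library, all but the one without replicate 3 labelled ISM1-/-. *Car1*, *Car5a*, *Car6* and *Car10* had at most 2 counts in any library, so no difference was detectable in them at this depth. No level separated the 8 genes described here from the rest, since *Car12* had fewer CPM than *Car11* in all 6 libraries and than *Car9* in some. By mean FPKM *Car12* was at rank 12 of the 16 family genes.

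Transporters that carry the bicarbonate and protons made by these enzymes were listed as well. Of all genes tested, 4.72% passed the adjusted p and 0.567% passed both thresholds. Of 14 bicarbonate transporter genes 12 were tested and 0 passed the adjusted p in edgeR, with log2 fold changes from -0.94 to 1.60 and a median of -0.08. The most abundant were *Slc4a2*, a chloride-bicarbonate exchanger (106.9 ± 4.30 CPM in WT against 101.5 ± 4.40 CPM in the libraries labelled ISM1-/-), *Slc26a9*, a chloride transporter of airway epithelium (81.4 ± 8.30 and 67.2 ± 2.54 CPM) and *Slc4a5*, a sodium-bicarbonate cotransporter (75.8 ± 5.36 and 70.2 ± 4.48 CPM). Among the 12 tested, 10 log2 fold changes were negative and 2 positive. Lower without overlap between groups were 3 of the 12, *Slc26a9* among them, beside 12.3% of all genes tested. Of 6 tested genes of proton and lactate transport, *Slc9a2*, a sodium-proton exchanger of epithelia, passed the adjusted p and fell by 0.95 on the log2 scale (SE 0.16, adjusted p = 0.0232), while 0 of the 6 passed without WT replicate 2. Of 5 tested water and gas channel genes *Rhbg*, an ammonia channel, passed both thresholds, at 40, 54 and 40 WT counts against 17, 19 and 13 labelled ISM1-/- (log2 fold change -1.46, SE 0.28, adjusted p = 0.0314), but 0 of the 5 passed without WT replicate 2 or without replicate 1 labelled ISM1-/-. *Aqp1*, the water channel of capillary endothelium, was at 746.1 ± 13.8 and 800.2 ± 26.8 CPM and did not pass. Its groups did not overlap, as for 21.6% of all genes tested in either direction.

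**Figure D4:**
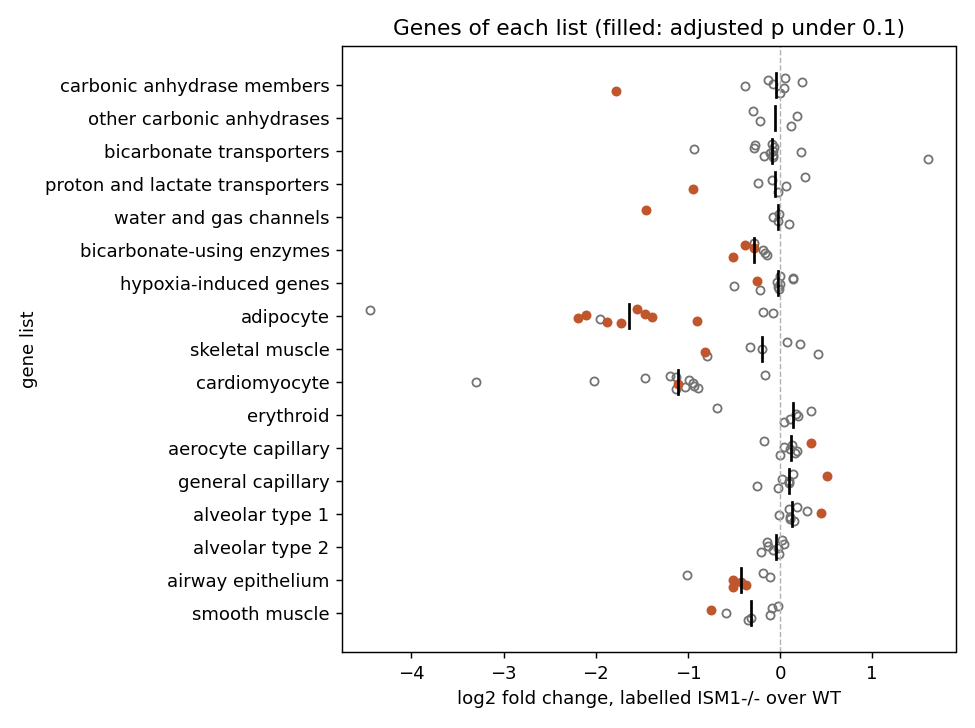
Log2 fold change, libraries labelled ISM1-/- over WT, of every tested gene of 17 lists, filled where the adjusted p in edgeR was under 0.1, with a bar at the median of each list. The carbonic anhydrases sit around a median of -0.04 with *Car3* alone at -1.78, the adipocyte genes around -1.64 and the bicarbonate-using enzymes around -0.29.

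Levels can be compared between genes only per length, and the order depends on which length is used. The FPKM values that the authors deposited use a length that lay within 1 base of the mean length of all GENCODE M21 transcripts of the gene, for 16 of the 16 family genes, so genes with many short transcripts read high. In FPKM, *Car4* led in WT with 228.0 ± 5.73, followed by *Car2* at 83.6 ± 4.09, *Car3* at 65.8 ± 7.79, *Car8* at 33.3 ± 1.34 and *Car14* at 16.6 ± 1.77. *Car5b* at 3.31 ± 0.24, *Car13* at 2.14 ± 0.29 and *Car12* at 0.57 ± 0.12 came last (SD, n = 3 each). In the libraries labelled ISM1-/- the FPKM of *Car3*, 19.0 ± 13.3, came below that of *Car8*, 31.5 ± 1.72, although replicate 3 alone, at 34.3, lay above the 33.1 of *Car8* in the same library.

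On another scale, CPM per kilobase of the longest coding transcript, *Car4* again led, at 122.9 in WT. *Car2* and *Car3* then shared the second place in WT, at 50.6 and 50.5, with libraries from 47.8 to 52.2 for *Car2* and from 44.4 to 56.2 for *Car3*, so these 2 did not differ beyond their spread. *Car8* followed at 33.2, *Car14* at 9.78, *Car5b* at 3.17, *Car13* at 2.13 and *Car12* at 0.35, which is the order given by FPKM. In the libraries labelled ISM1-/- *Car3* was at 14.7 on this scale, below *Car8* at 31.6. Per kilobase of the gene length in the deposited table, averaged over all 6 libraries, *Car8* came before *Car3* and *Car13* before *Car5b*, and the other 4 kept their places.

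**Figure D5:**
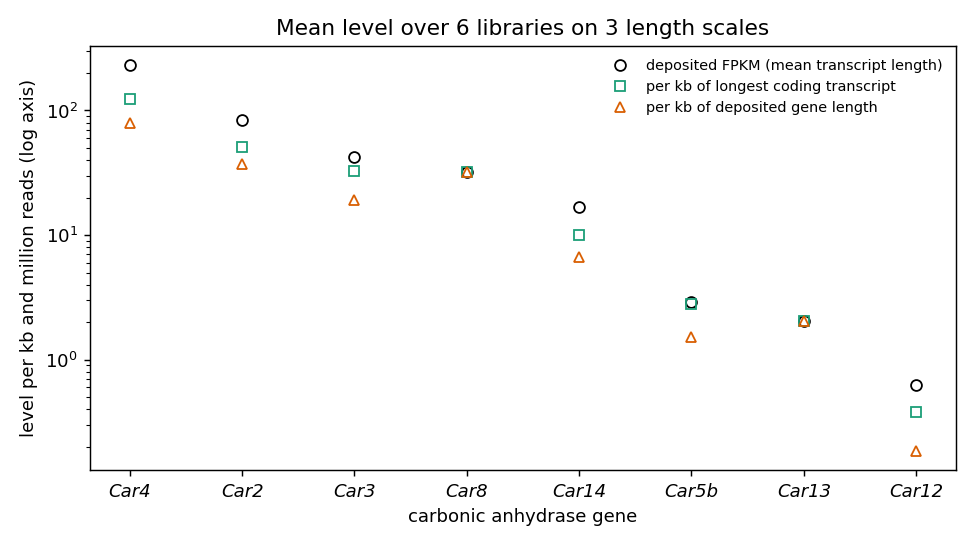
Mean level of each of the 8 genes over all 6 libraries on 3 length scales, on a log axis: deposited FPKM (circles), TMM-scaled CPM per kilobase of the longest coding transcript (squares) and per kilobase of the deposited gene length (triangles). *Car4* leads on all 3 scales, at 230.8, 124.8 and 79.7, and *Car12* is last on all 3.

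Summed over the 16 genes of the family, FPKM was 456.0, 418.1 and 445.8 in the WT libraries against 377.3, 403.1 and 406.1 in the libraries labelled ISM1-/-, with no overlap between groups. Without *Car3* the sum was 382.7, 360.4 and 379.2 in WT against 366.8, 391.0 and 371.8 in the others, and the groups overlapped. *Car3* made up 13.8% to 16.1% of the family sum in WT against 2.79% to 8.45% in the libraries labelled ISM1-/-. The share of *Car4* was 51.1% to 53.0% in WT against 57.7% to 61.3% in the others, while its own FPKM overlapped between groups (228.0 ± 5.73 and 233.6 ± 13.6). The 8 genes described here held 98.2% to 98.6% of the family sum in every library. These sums and shares hold for FPKM only, since another choice of length changes the weight of each gene.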

How the data were processed

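Poly-A RNA of perfused whole lungs from 3 WT and 3 ISM1-/- mice was made into strand-specific libraries and sequenced in read pairs. The authors filtered reads for quality and adaptors, mapped them to GRCm38 (mm10) with STAR and deposited raw counts per gene without normalization. CASAVA and STAR are named in the submitters' processing notes. The counting program, annotation release and strand setting are not given in the sources used here. The authors also deposited FPKM values, made from the counts, the library total and a gene length.

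The table lists 54532 genes, of which the 18689 that reached 0.5 CPM in any library were tested. TMM scaling and the quasi-likelihood test of edgeR 4.0.16 (estimateDisp, glmQLFit and glmQLFTest, under R 4.3.3) compared the genotypes with no covariate. An adjusted p under 0.1 with at least a 2-fold change was the threshold, as in the study's results, and its methods name other settings that served as alternatives. Mean ± SD values are TMM-scaled CPM, or deposited FPKM where FPKM is named. Intervals cover 95% and come from the fit. Every pair of libraries differed by more than sampling noise (chi-square of counts), and the study names the 3 libraries of a group biological replicates.

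The 8 carbonic anhydrases and the 17 gene lists were chosen with earlier results of these data known. Named genes were all family members, *Ism1*, the genes of each list past both thresholds and up to 3 of its most abundant, genes that overlap or adjoin a member, and the 5 genes most like any member spanning at least 2-fold. *Cidec*, *Cidea*, *Ucp1*, *Pparg*, *Mylpf*, *Acta1*, *Myh4*, *Pln*, *Mccc2*, *Slc9a2*, *Slc2a1*, *Prx* and *Sema3c* were named after their values were seen. *Ahsp* of the erythroid list has no entry in the table. For likeness, log2 of CPM plus 0.01 was used. Transcripts, exons and shared sequence came from GENCODE M21 on GRCm38, and the primers from the study's primer sheet (Python 3.11.15, pandas 2.3.3).

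The alternatives were DESeq2 1.42.0, RLE size factors, an adjusted p of 0.05, no fold minimum, looser and stricter count filters, leaving out single libraries, a block for the replicate number and other lengths for the order of genes, of which the longest coding transcript was added after seeing the data. The tests were first tried on simulated counts.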

Additional observations from a re-analysis of the deposited data

How the results depend on the processing

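*Car3* stayed lower in the libraries labelled ISM1-/- in all 12 alternative fits, and the number of the 8 carbonic anhydrases past both thresholds was 1 except when single libraries were left out, when it was 0 to 1 (0 without WT replicate 2 and without replicate 1 or 2 labelled ISM1-/-). *Car5b* stayed lower in all 12 and passed the adjusted p of 0.1 in 3, namely DESeq2 (0.0818), no filter (0.0653) and the fit without replicate 3 labelled ISM1-/- (0.0371). The log2 fold change of *Car2* turned positive without WT replicate 1 (0.01), WT replicate 3 (0.02) or replicate 3 labelled ISM1-/- (0.034), over a range of -0.044 to 0.034, and that of *Car14* turned negative without WT replicate 2 (-0.0089) or replicate 2 labelled ISM1-/- (-0.0071), over -0.0089 to 0.14. *Ism1* was between -0.26 and -0.15 with single libraries left out and passed only without replicate 3 labelled ISM1-/- (-0.26, adjusted p = 0.0356). The count over all genes, 106, became 293 without a filter, 37 above a mean of 2 CPM, 51 at an adjusted p of 0.05, 882 without a fold minimum and 31 to 188 with single libraries left out. The 9 genes of the other lists became 20 without a filter, 24 without a fold minimum and 3 to 15 with single libraries left out. The cause of these changes was not tested.

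The replicate numbers are shared by different mice, and the deviations of same-numbered libraries from their group means correlated at -0.04, 0.03 and 0.0010, so the numbers were not used to pair mice. With the replicate number as a block 130 genes, 10 list genes and 1 carbonic anhydrase passed, *Car3* at -1.97 and *Ism1* at -0.19. Above a mean of 2 CPM *Car12* was not tested. For *Car12* and *Car13*, with 40 to 212 counts, and for the 4 family genes with at most 2 counts per library, depth limits what can be seen.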
